A study of Mus musculus with 12 samples.

Results

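Scavenger receptors are surface proteins with which macrophages take up modified lipoproteins, glycans, dead cells, haemoglobin complexes and microbes. The members are 7 receptors of this kind that macrophages carry, chosen by name with earlier results of these data known. All 7 were among the 54232 genes of the count table: Msr1, Marco, Cd36, Scarb1, Mrc1, Cd163 and Stab1. They belong to different protein families that share the ability to bind many ligands and bring them into the cell. Class A receptors such as Msr1 and Marco have collagen-like stalks and bind modified low-density lipoprotein and bacteria, and the class B receptors Cd36 and Scarb1 handle fatty acids and lipoproteins. Mrc1, the mannose receptor CD206, is a lectin widely used as a marker of alternatively activated macrophages, Cd163 takes up haemoglobin bound to haptoglobin, and Stab1 is an endocytic receptor for modified lipoproteins and extracellular matrix fragments.

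Messenger RNA was measured by sequencing in bone marrow derived macrophages (BMDMs) of C57BL/6 mice. After 5 days of culture the cells received tumor-conditioned medium (TCM) of neuroblastoma cells or no TCM (NS) for 24 h, with or without R788 at 500 nM. R788 (fostamatinib) inhibits Syk, a tyrosine kinase that relays signals from many immune receptors. NB9464 is a mouse neuroblastoma line with amplified MYCN, and NBT3L is a line without that amplification. There were 2 libraries in each of 6 groups, namely NS and R788 without TCM, NB9464 TCM with and without R788, and NBT3L TCM with and without R788. All groups had the same strain, and none carried a stated deletion or transgene. By the paper's methods, NB9464 TCM was serum-free DMEM collected from the tumor cells, and BMDMs were grown in RPMI with serum and the growth factor M-CSF. The base medium of the cells without TCM, the vehicle of R788 and the preparation of NBT3L TCM were not given, so TCM and a change of base medium or its serum cannot be told apart. For the same reason, the neuroblastoma line and the preparation of its TCM cannot be told apart, nor can R788 and its vehicle. The sources used here did not say whether the libraries of a group came from separate mice or cultures, and p-values then cover the spread between these libraries, which may be technical.

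Total counts were between 44977847 and 56449685 per library, and 11 libraries had 17275 to 18343 genes with a count. The R788 library SJ8 had 16149 such genes, and the SD of the log2 difference between the R788 replicates was 0.371 against 0.230 to 0.261 in the other groups. All 12 macrophage markers examined, among them Adgre1, Csf1r and Lyz2, passed the count filter, and their summed level was 73512 to 88014 TPM, transcript counts per length scaled to a fixed total per library. Most of that sum was Lyz2, at 63439 to 77172 TPM. Other markers varied more between libraries, such as Adgre1 at 1394 to 5904 TPM and C1qa at 83.5 to 918 TPM. Of the 10 neuroblastoma markers 5 passed, with a summed level of 0.0893 to 0.713 TPM without TCM and 1.23 to 2.36 TPM with TCM, and Th and Chga were at 0 counts in all libraries. The 8 markers of neutrophils and their precursors, of which 7 passed, summed to 442 to 574 TPM without TCM and 586 to 794 TPM with TCM, and endothelial markers, 4 of 7 passed, summed to 10.9 and 11.7 TPM in NS and 6.01 to 8.44 TPM in the other groups. B cell markers, 2 of 5 passed, summed to 13.9 to 18.2 TPM in TCM + R788 and 4.35 to 9.48 TPM elsewhere, and fibroblast markers, all 7 passed, to 20.8 and 25.2 TPM with R788 alone and 10.1 to 21.6 TPM elsewhere. The part of these in the results below was not tested. In bulk RNA, fewer cells that express a gene and less RNA of that gene per cell cannot be told apart.

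On the mouse genome build mm10, Msr1 (ENSMUSG00000025044) lies at chr8:39581685-39642673, Marco (ENSMUSG00000026390) at chr1:120474538-120505024 and Cd36 (ENSMUSG00000002944) at chr5:17781690-17888801. Scarb1 (ENSMUSG00000037936) lies at chr5:125277087-125341094, Mrc1 (ENSMUSG00000026712) at chr2:14229392-14332057, Cd163 (ENSMUSG00000008845) at chr6:124304656-124330527 and Stab1 (ENSMUSG00000042286) at chr14:31139013-31168641. Counts covered the exons of each gene, UTRs included. Exons of Stab1 overlap those of Nt5dc2 on the opposite strand over 112 bases of its 10288, and whether counting used the strand was not stated. RefSeq on GRCm38.p6 gave promoter windows for 5 of the 7 genes, and Msr1 and Scarb1 had no entry. RefSeq starts can differ from the ends of the gene spans above. The last bases of the Mrc1 window and the whole Cd36 window lie inside those spans. The 250 bases before the annotated start are shown 5′ to 3′ for the 3 receptors whose messages moved most, Marco at chr1:120505025-120505274 on the minus strand, Mrc1 at chr2:14229164-14229413 on the plus strand and Stab1 at chr14:31168642-31168891 on the minus strand. Capitals mark matches, on either strand, to short motifs of factors active in macrophages.
Marco: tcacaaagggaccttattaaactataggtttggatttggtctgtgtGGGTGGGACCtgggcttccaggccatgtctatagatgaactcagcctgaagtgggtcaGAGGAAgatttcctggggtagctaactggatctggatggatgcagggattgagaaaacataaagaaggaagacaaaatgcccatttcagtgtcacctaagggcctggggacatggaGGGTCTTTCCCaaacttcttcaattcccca
Mrc1: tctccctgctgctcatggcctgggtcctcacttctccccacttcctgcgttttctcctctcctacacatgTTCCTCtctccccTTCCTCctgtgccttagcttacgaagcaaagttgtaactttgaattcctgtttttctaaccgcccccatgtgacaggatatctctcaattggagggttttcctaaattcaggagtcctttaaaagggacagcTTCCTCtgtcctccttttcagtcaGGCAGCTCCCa
Stab1: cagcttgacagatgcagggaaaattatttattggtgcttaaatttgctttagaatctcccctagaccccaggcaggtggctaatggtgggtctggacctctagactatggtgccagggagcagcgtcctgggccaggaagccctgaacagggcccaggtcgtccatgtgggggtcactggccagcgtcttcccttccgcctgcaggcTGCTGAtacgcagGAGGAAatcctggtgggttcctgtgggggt
The letters GAGGAA, the core bound by ETS factors such as PU.1, occurred 1 time in the Marco window at position -146 from the start, 3 times in the Mrc1 window from position -180 and 1 time in the Stab1 window at position -30. They occurred in 23.3% of the 32851 promoter windows of that length in the table. A loose pattern for NF-kB sites matched 3 times in the Marco window, with 2 of these matches overlapping each other on opposite strands, and 1 time in the Mrc1 window, beside 45.8% of all windows. The Mrc1 match lies in the part of the window inside the gene span. The Stab1 window had no match to that pattern and held TGCTGA, the core of MAF factor sites, at position -43, a match that 16.1% of all windows had. The patterns TGANTCA (AP-1), TTGCNNAA (C/EBP), TTCNNNGAA (STAT) and the core promoter element TATAAA were in none of the windows of Marco, Mrc1, Stab1, Cd36 and Cd163, and in 6.75%, 9.56%, 7.02% and 12.4% of all windows. A match to letters is a description and does not show a bound site.

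Corrected for gene length, Marco was the most abundant of the 7 messages in every group, and Cd163 the least abundant in all groups. In NS macrophages the mean levels were 1885 ± 17.9 TPM for Marco, 855 ± 35.2 for Cd36, 586 ± 28.5 for Stab1, 427 ± 12.7 for Msr1, 272 ± 21.5 for Mrc1, 44.8 ± 0.218 for Scarb1 and 7.11 ± 0.467 for Cd163 (SD, n = 2). With TCM the order changed, since Mrc1, the fifth of the 7 in NS, stood below Scarb1 in NB9464 TCM (22.4 ± 2.56 against 40.03 ± 0.0875 TPM), whereas the 2 messages were near each other in NBT3L TCM (34.8 ± 1.6 against 30.6 ± 0.665 TPM). The level of Marco over that of Mrc1 was 6.61 and 7.30 in the NS libraries, 636 and 764 in NB9464 TCM and 452 and 467 in NBT3L TCM. With R788 added this ratio of levels reached 2387 and 2435 in NB9464 TCM and 1127 and 1046 in NBT3L TCM. Among all genes of a library ranked by TPM, Marco was 47th and 50th in NS and 4th or 5th in each library with TCM. Mrc1 went from rank 507 and 565 in NS to 4784 and 5097 in NB9464 TCM and to 8021 and 8083 when R788 was added.

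**Figure D1:**
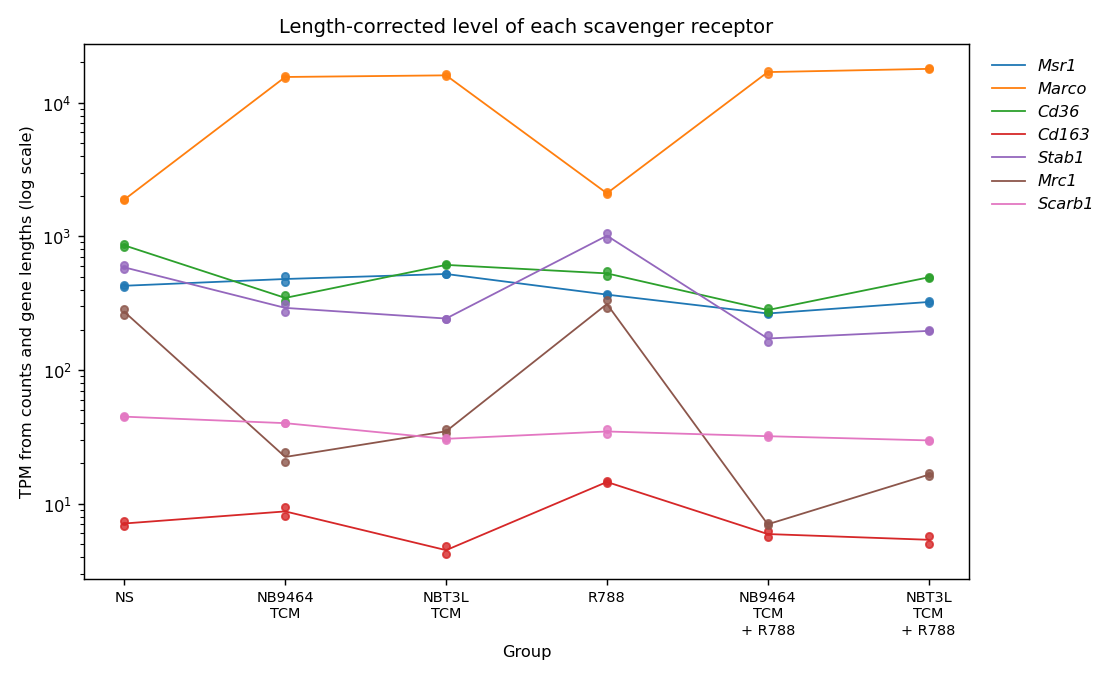
Level of each receptor in TPM on a log axis by group, with 1 circle per library and lines through the group means. Marco lies near 1885 TPM in NS and between 15544 and 17875 TPM in the 4 groups with TCM, while Mrc1 falls from 272 TPM in NS to 7.02 TPM in NB9464 TCM + R788.

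The comparison of each TCM with NS asked how the receptors differed between cells with and without TCM. Marco rose 9.84-fold to 11.1-fold and Mrc1 fell 5.95-fold to 10.2-fold, Msr1 rose and Stab1 fell in both media, and Cd36 fell in NB9464 TCM. Cd163 rose in NB9464 TCM, and Scarb1 changed little. Values are counts normalized for sequencing depth, and differences are log2 fold changes with standard errors (SE) from DESeq2, called at an adjusted p under 0.05. In NB9464 TCM against NS 6 of the 7 receptors were called, 3 higher and 3 lower, where 34.1% of the 16281 genes tested were called, 17.2% higher and 16.9% lower. In NBT3L TCM against NS 5 were called, 2 higher and 3 lower, where 35.3% of all genes were called, 18% higher and 17.3% lower. Both comparisons use the same NS libraries. The median log2 fold change of the 7 was 0.09 in NB9464 TCM and -0.16 in NBT3L TCM, beside 0.02 and 0.00 over all genes.

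**Figure D2:**
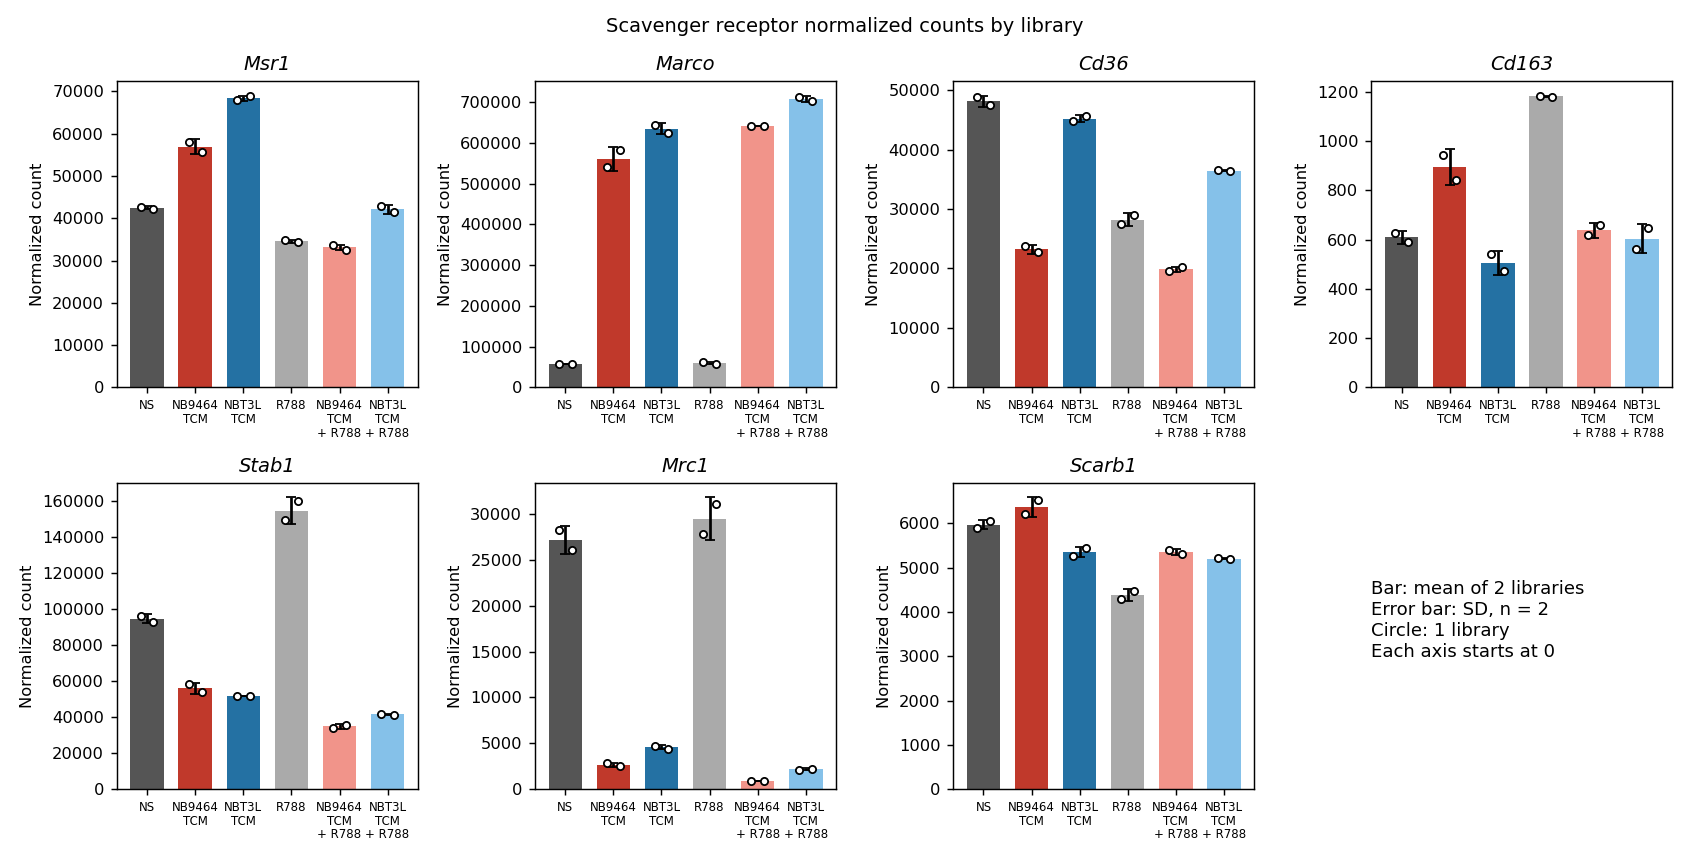
Normalized counts of the 7 receptors in the 6 groups, with bars for group means, error bars for the SD (n = 2) and a circle for each library. The 8 libraries with TCM lie between 540012 and 713578 for Marco, above the 4 libraries without TCM, and between 872 and 4716 for Mrc1, below the 4 libraries without TCM.

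Marco, a class A receptor for bacteria and particles, had normalized counts of 56469 and 57478 in NS, 540012 and 581237 in NB9464 TCM, and 644078 and 624626 in NBT3L TCM. Every TCM library was above every NS library, and the message took 1.05% to 1.16% of all counts in these TCM libraries against 0.119% and 0.121% in NS. The rise was 9.84-fold in NB9464 TCM (log2 fold change 3.30 ± 0.0491 SE) and 11.1-fold in NBT3L TCM (3.48 ± 0.0491 SE), and the DESeq2 adjusted p of both was too small to be represented. Msr1, the type I macrophage scavenger receptor for acetylated and oxidized lipoprotein, had 42710 and 42247 in NS, 58128 and 55642 in NB9464 TCM and 67845 and 68793 in NBT3L TCM. The groups did not overlap, and the rises of 1.34-fold (adjusted p = 1.87e-20) and 1.61-fold (adjusted p = 5.14e-53) were far below those of Marco. The level of Marco over that of Msr1 in TPM went from 4.36 and 4.48 in NS to 30.6 and 34.4 in NB9464 TCM and 31.3 and 29.9 in NBT3L TCM.

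Mrc1 had 28261 and 26069 normalized counts in NS, 2812 and 2517 in NB9464 TCM and 4716 and 4424 in NBT3L TCM. The highest TCM library was far below the lower NS library. The fall was 10.2-fold in NB9464 TCM (log2 fold change -3.35 ± 0.0772 SE, adjusted p too small to be represented) and 5.95-fold in NBT3L TCM (-2.57 ± 0.0765 SE, adjusted p = 2.13e-245). Stab1 had 96302 and 92735 in NS, 58213 and 53914 in NB9464 TCM and 51441 and 51424 in NBT3L TCM. It fell by 0.75 ± 0.0536 (SE) on the log2 scale in NB9464 TCM (adjusted p = 1.98e-43) and by 0.88 ± 0.0536 in NBT3L TCM (adjusted p = 1.23e-58), without overlap of the groups. Mrc1 thus fell much more than Stab1, and the level of Stab1 over that of Mrc1 went from 2.11 and 2.20 in NS to 12.8 and 13.3 in NB9464 TCM and 6.76 and 7.20 in NBT3L TCM.

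Cd36, a fatty acid and oxidized lipoprotein receptor, had 48806 and 47501 normalized counts in NS and 23787 and 22704 in NB9464 TCM, a fall to 0.483 of the NS level (log2 fold change -1.05 ± 0.0483 SE, adjusted p = 7.98e-103). In NBT3L TCM it had 44794 and 45648, below both NS libraries but by only -0.09 (95% interval -0.18 to 0.00, adjusted p = 0.137). That small difference was called under TMM scaling (adjusted p = 0.0434), under total count scaling (adjusted p = 3.9e-09) and without either R788 library. Scarb1, the high-density lipoprotein receptor that passes cholesterol between lipoproteins and cells, had 5903 and 6048 in NS, 6219 and 6527 in NB9464 TCM and 5270 and 5441 in NBT3L TCM. Its difference from NS was 0.09 in NB9464 TCM (95% interval -0.03 to 0.22, adjusted p = 0.286) and -0.16 in NBT3L TCM (adjusted p = 0.0408). The latter call was lost in 12 of the 19 alternative fits, with adjusted p between 0.0606 and 0.263 in these.

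Cd163 was measured at a low level, with 628 and 591 normalized counts in NS, 945 and 843 in NB9464 TCM and 540 and 472 in NBT3L TCM. It rose in NB9464 TCM (log2 fold change 0.55 ± 0.153 SE, adjusted p = 0.00136), and without library SJ3 of that group the adjusted p was 0.0591. In NBT3L TCM both libraries were below NS, with a difference of -0.27 (95% interval -0.58 to 0.04, adjusted p = 0.183) that was called only under total count scaling (adjusted p = 0.00475). Cd163 and Mrc1, both often used as markers of alternatively activated macrophages, thus moved in opposite directions in NB9464 TCM.

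**Figure D3:**
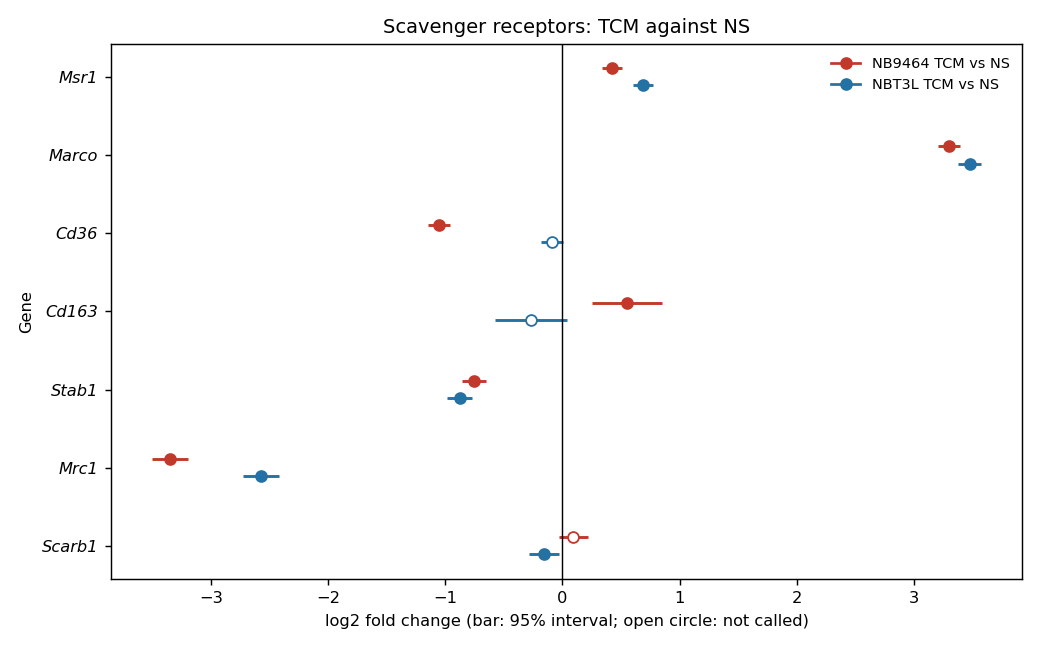
Log2 fold change of each receptor in NB9464 TCM (red) and NBT3L TCM (blue) against NS, with 95% intervals and filled circles for called differences. Marco stands at 3.30 and 3.48 and Mrc1 at -3.35 and -2.57, and the other 5 genes lie between -1.05 and 0.69.

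When the depth was set by total counts, the log2 fold changes of all genes shifted by a median of -0.13 in NB9464 TCM and -0.23 in NBT3L TCM against NS, and the share of called genes that were higher went from 50.5% to 35.4% and from 51.1% to 26.8%. Under that scaling NB9464 TCM had 3 receptors higher and 3 lower than NS, and NBT3L TCM had 2 higher and 5 lower. The directions of Marco, Msr1, Mrc1 and Stab1 in both media and of Cd36 in NB9464 TCM held under all 19 alternatives, with Msr1 at 0.29 to 0.45 in NB9464 TCM and at 0.45 to 0.70 in NBT3L TCM.

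The direct comparison of NB9464 TCM with NBT3L TCM asked whether the receptors differed between the TCMs, where line and preparation of the medium cannot be told apart. Of the 7 receptors 6 were called, 2 with more and 4 with less message in NB9464 TCM, where 9.4% of all genes were called, 3.69% higher and 5.72% lower. Cd36 was at 0.514 of its NBT3L TCM level in NB9464 TCM (log2 fold change -0.96 ± 0.0484 SE, adjusted p = 2.98e-84), and Mrc1 was at 0.583 of it (-0.78 ± 0.0786 SE, adjusted p = 7.18e-21). Msr1 was lower by a smaller amount (-0.26 ± 0.0440 SE, adjusted p = 8.51e-08). Cd163 was 1.77-fold higher in NB9464 TCM (0.82 ± 0.156 SE, adjusted p = 4.01e-06). All libraries of the groups were separate for these 4 genes, and each call held under all 19 alternatives.

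Scarb1 was higher in NB9464 TCM by 0.25 (adjusted p = 0.00152), a call lost without library SJ4 or SJ5 (adjusted p = 0.0958 and 0.108). Marco was lower by 0.18 on the log2 scale (log2 fold change -0.18, adjusted p = 0.00377). That call was lost under total count scaling (adjusted p = 0.309), without library SJ3 (adjusted p = 0.188) and without library SJ5 (adjusted p = 0.138). Stab1 differed by 0.12 (95% interval 0.02 to 0.23, adjusted p = 0.117), and it was called higher under 5 alternatives. Total count scaling shifted all genes by a median of 0.10 in this comparison, moved the higher share of called genes from 39.2% to 71.9%, and left 3 receptors on each side.

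Libraries with R788 were set against those without it, medium by medium, to see how the receptors differed with a Syk inhibitor. Its vehicle was not given, so changes ascribed to R788 here and below cannot be told apart from changes by the vehicle. Without TCM, Stab1 and Cd163 rose, Cd36, Scarb1 and Msr1 fell, and Marco and Mrc1 were not called. In TCM the pattern was different, since Stab1 fell instead of rising and Mrc1, already low, fell further. In R788 against NS 5 of the 7 receptors were called, 2 higher and 3 lower, where 26.6% of all genes were called, 11.6% higher and 15% lower. With R788 in NB9464 TCM against NB9464 TCM all 7 were called, 1 higher and 6 lower, where 14.5% of all genes were called, 5.79% higher and 8.7% lower. In NBT3L TCM with R788 against NBT3L TCM 5 were called, 1 higher and 4 lower, where 12.6% were called, 5.33% higher and 7.24% lower. The median log2 fold change of the 7 receptors was 0.08, -0.49 and -0.31 in these comparisons, beside 0.00, 0.00 and 0.00 over all genes tested. Under total count scaling the higher share of all genes called in R788 against NS went from 43.5% to 55.5%, and Marco was called as well. Without library SJ8, which had fewer genes with a count, the same 5 receptors and Marco were called, with log2 fold changes of 0.66 for Stab1, 0.96 for Cd163, -0.81 for Cd36, -0.48 for Scarb1, -0.29 for Msr1 and 0.12 for Marco.

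Stab1 had 149283 and 159770 normalized counts with R788 alone, 33809 and 35838 in NB9464 TCM + R788 and 41791 and 41243 in NBT3L TCM + R788. The R788 libraries were the highest of all 12, and the libraries with both TCM and R788 the lowest. R788 raised Stab1 1.64-fold without TCM (log2 fold change 0.71 ± 0.0534 SE, adjusted p = 3.77e-38) and lowered it to 0.621 in NB9464 TCM (adjusted p = 3.9e-35) and to 0.807 in NBT3L TCM (adjusted p = 2.84e-07). Cd163 followed a related course without TCM, with 1183 and 1180 under R788, a 1.94-fold rise (0.96 ± 0.152 SE, adjusted p = 5.42e-09). In NB9464 TCM + R788 it had 617 and 658, lower than without R788 (-0.49 ± 0.153 SE, adjusted p = 0.0112), and that call was lost without library SJ3, SJ9 or SJ10 (adjusted p = 0.205, 0.156 and 0.0575). In NBT3L TCM + R788 it had 563 and 645, a difference of 0.26 (95% interval -0.05 to 0.57, adjusted p = 0.314).

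Mrc1 had 27830 and 31158 normalized counts with R788 alone, around the NS libraries (difference 0.12, 95% interval -0.03 to 0.27, adjusted p = 0.251). Without library SJ7 this difference was 0.20 and called (adjusted p = 0.0342). In NB9464 TCM + R788 Mrc1 had 888 and 872 and in NBT3L TCM + R788 2095 and 2225, each below both libraries with the TCM alone. R788 thus lowered Mrc1 3.03-fold in NB9464 TCM (log2 fold change -1.598 ± 0.0846 SE, adjusted p = 8.82e-77) and 2.12-fold in NBT3L TCM (-1.08 ± 0.0795 SE, adjusted p = 7.8e-40). Relative to NS, the combination left Mrc1 30.9-fold lower with NB9464 TCM and 12.6-fold lower with NBT3L TCM.

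Msr1 had 34822 and 34333 normalized counts with R788 alone, 33574 and 32583 in NB9464 TCM + R788 and 42833 and 41404 in NBT3L TCM + R788. R788 lowered it in all 3 media, to 0.814 of the level without TCM (adjusted p = 3.34e-10), to 0.582 in NB9464 TCM (adjusted p = 1.52e-67) and to 0.617 in NBT3L TCM (adjusted p = 5.73e-54). Marco, the other class A receptor, did not share that fall. It had 62150 and 58006 with R788 alone, 640613 and 641396 in NB9464 TCM + R788 and 713578 and 702905 in NBT3L TCM + R788. Its differences were 0.08 without TCM (95% interval -0.02 to 0.17, adjusted p = 0.262), 0.19 in NB9464 TCM (adjusted p = 0.000942) and 0.16 in NBT3L TCM (adjusted p = 0.0109). The rises in TCM were small, and the calls were lost without library SJ3 for NB9464 TCM (adjusted p = 0.0825) and without library SJ6, SJ11 or SJ12 for NBT3L TCM (adjusted p = 0.211, 0.174 and 0.0884). The difference without TCM was called without library SJ8 (adjusted p = 0.0244).

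Cd36 had 27432 and 28948 normalized counts with R788 alone, 19503 and 20181 in NB9464 TCM + R788 and 36490 and 36389 in NBT3L TCM + R788. It fell to 0.585 of its level without TCM (log2 fold change -0.77 ± 0.0482 SE, adjusted p = 1.56e-55), to 0.854 in NB9464 TCM (-0.23 ± 0.0487 SE, adjusted p = 4.93e-05) and to 0.806 in NBT3L TCM (-0.31 ± 0.0482 SE, adjusted p = 4.48e-09). The largest of these falls was thus that without TCM. Scarb1 had 4290 and 4480 with R788 alone, 5404 and 5304 in NB9464 TCM + R788 and 5211 and 5200 in NBT3L TCM + R788. R788 alone was thus its lowest group in normalized counts, but not in TPM. There it had 34.7, against 32.0 in NB9464 TCM + R788, 30.6 in NBT3L TCM and 29.8 in NBT3L TCM + R788. It fell by 0.45 on the log2 scale without TCM (adjusted p = 7.62e-11) and by 0.25 in NB9464 TCM (adjusted p = 0.00107, or 0.061 without library SJ4). In NBT3L TCM the difference was -0.04 (95% interval -0.17 to 0.09, adjusted p = 0.777).

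**Figure D4:**
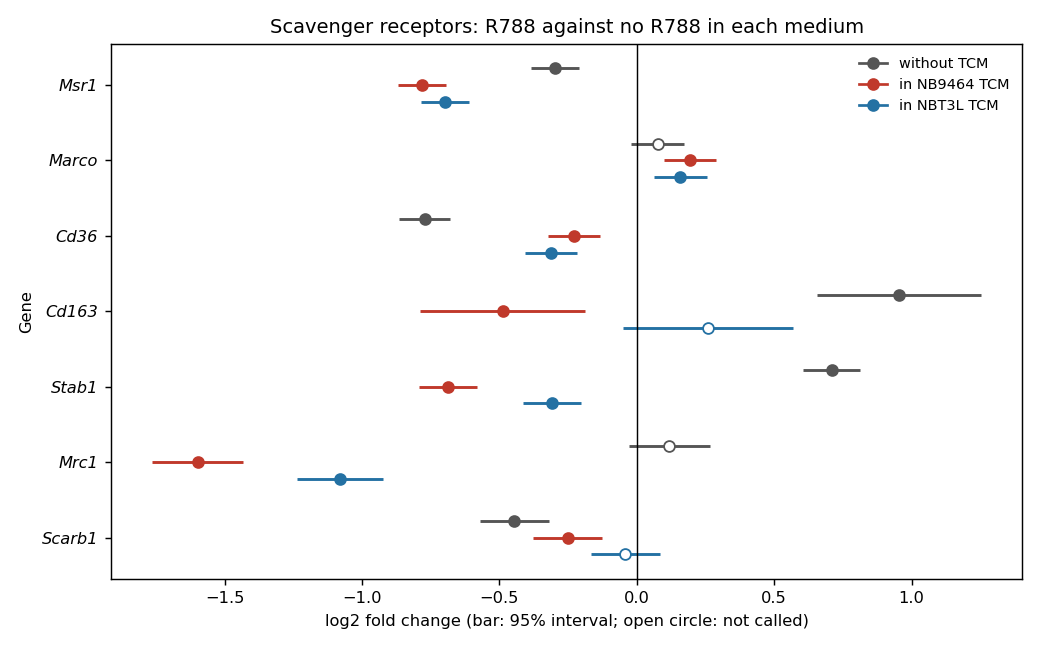
Log2 fold change of each receptor with R788 against no R788, without TCM (grey), in NB9464 TCM (red) and in NBT3L TCM (blue), with 95% intervals and filled circles for called differences. Stab1 lies at 0.71 without TCM and at -0.69 and -0.31 in TCM, and Mrc1 lies at 0.12, -1.598 and -1.08.

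Whether the effect of R788 differed between media was tested with interaction contrasts, each the log2 fold change by R788 in one medium minus that in another. For NB9464 TCM minus no TCM 5 of the 7 receptors were called, 1 positive and 4 negative, where 12.5% of all genes were called, 6.22% positive and 6.26% negative. For NBT3L TCM minus no TCM 6 were called, 2 positive and 4 negative, where 10.1% of all genes were called, 5.17% positive and 4.96% negative. Total count scaling moved the positive share of all genes called from 49.9% to 31.4% and from 51.1% to 40.2%, and left the number of receptors called at 5 and 6. These contrasts share the NS and R788 libraries. Stab1 had a negative difference of effect of -1.396 ± 0.0758 (SE) in NB9464 TCM (adjusted p = 2.38e-72) and -1.02 ± 0.0758 in NBT3L TCM (adjusted p = 2.61e-38). Mrc1 had -1.72 ± 0.113 (adjusted p = 4.49e-49) and -1.20 ± 0.109 (adjusted p = 1.86e-25), and Msr1 had -0.49 ± 0.0624 (adjusted p = 8.69e-13) and -0.40 ± 0.0624 (adjusted p = 8.21e-09). Cd36 had positive differences of effect of 0.54 ± 0.0685 (adjusted p = 2.36e-13) and 0.46 ± 0.0682 (adjusted p = 1.01e-09), since its fall was smaller in TCM.

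The difference of effect for Cd163 was -1.44 ± 0.216 in NB9464 TCM (adjusted p = 1.43e-09) and -0.70 ± 0.219 in NBT3L TCM (adjusted p = 0.0156), the latter lost without library SJ2, SJ5 or SJ11 (adjusted p = 0.106, 0.141 and 0.125). Scarb1 had 0.41 ± 0.0912 in NBT3L TCM (adjusted p = 0.000215) and 0.19 in NB9464 TCM (95% interval 0.02 to 0.37, adjusted p = 0.136). For Marco the differences of effect were 0.12 (95% interval -0.02 to 0.25, adjusted p = 0.28) and 0.08 (95% interval -0.05 to 0.22, adjusted p = 0.516), and the former was called without library SJ7 (adjusted p = 0.0217). Between the TCMs, for NB9464 TCM minus NBT3L TCM, 2 of the 7 were called, none positive and 2 negative, where 0.706% of all genes were called, 0.283% positive and 0.424% negative, or 25.3% of called genes positive under total count scaling against 40%. Stab1 fell more with R788 in NB9464 TCM by 0.38 (difference -0.38 ± 0.0760, adjusted p = 0.000375), as did Mrc1 (-0.52 ± 0.116, adjusted p = 0.00314). The call of Mrc1 was lost with the edgeR quasi-likelihood test (adjusted p = 0.0726) and without library SJ6 or SJ12 (adjusted p = 0.0573 and 0.0602). Cd163 had -0.75 (95% interval -1.18 to -0.32, adjusted p = 0.0748), which was called under 6 of the 19 alternatives.

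The combined treatments were set against NS to show the net level. In NB9464 TCM + R788 6 receptors were called, 1 higher and 5 lower, where 39.5% of all genes were called, 20% higher and 19.4% lower. In NBT3L TCM + R788 5 were called, 1 higher and 4 lower, where 39.8% were called, 20.1% higher and 19.7% lower. Marco was the receptor that stayed higher, 11.3-fold and 12.4-fold above NS. Msr1 ended at 0.779 of NS with NB9464 TCM + R788 (adjusted p = 3.32e-15). With NBT3L TCM + R788 Msr1 overlapped NS (difference -0.01, 95% interval -0.10 to 0.07, adjusted p = 0.87), and under total count scaling it was called lower (-0.23, adjusted p = 4.29e-06), where the median of all genes shifted by -0.21. Stab1 ended at 0.368 and 0.439 of NS and Cd36 at 0.412 and 0.757 of NS (adjusted p = 1.47e-156, 1.14e-106, 1.38e-151 and 7.07e-16). In normalized counts Cd163 overlapped NS in both, with differences of 0.06 (95% interval -0.24 to 0.37, adjusted p = 0.804) and -0.01 (95% interval -0.32 to 0.29, adjusted p = 0.964). Scarb1 was lower in both (log2 fold changes -0.16 and -0.20, adjusted p = 0.0359 and 0.00615), and the former call was lost in 11 of the 19 alternatives and the latter without library SJ2, SJ11 or SJ12. Under total count scaling 35.7% and 29.8% of the genes called were higher in these comparisons, against 50.8% and 50.5%.

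Across the 6 groups the receptors did not share an order. Group means spanned 33.5-fold for Mrc1, 12.4-fold for Marco and 4.44-fold for Stab1, and 2.07-fold to 2.43-fold for Msr1, Cd163 and Cd36. Scarb1 spanned 1.45-fold. In normalized counts Marco was highest in NBT3L TCM + R788 and Msr1 in NBT3L TCM, Cd36 was highest in NS, and Scarb1 was highest in NB9464 TCM. The place of Scarb1 depended on the scaling, since in TPM it was highest in NS (44.8 against 40.03 in NB9464 TCM). Cd163, Stab1 and Mrc1 were all highest with R788 alone, where Mrc1 overlapped NS in normalized counts. Neighbouring groups in the order of normalized counts overlapped for Msr1 (NS and NBT3L TCM + R788), Marco (NB9464 TCM + R788 and NBT3L TCM), Cd163 (NB9464 TCM + R788, NS and NBT3L TCM + R788) and Scarb1 (NBT3L TCM and NB9464 TCM + R788). In TPM, Msr1 in NBT3L TCM + R788 (329 and 316) was below NS (436 and 418) and R788 alone (363 and 370). Cd163 in NB9464 TCM + R788 (5.60 and 6.26) and NBT3L TCM + R788 (5.02 and 5.72) was below NS (7.44 and 6.78). Cd36 was lower in NBT3L TCM + R788 (493) than with R788 alone (528). The pairs of Marco and Scarb1 were also separate in TPM.

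Of 19 other scavenger receptors, 15 passed the count filter. Scara5, Megf10, Cd163l1 and Timd4 did not, with at most 8, 4, 0 and 0 counts in a library. Of the 15, 3 rose and 6 fell in NB9464 TCM (2 and 7 under total count scaling), with a median of -0.26. In NBT3L TCM 5 were higher and 6 lower (4 and 7 under total count scaling), with a median of 0.05. These calls were 60% and 73.3% of the 15, beside 34.1% and 35.3% of all genes. Cd5l, a secreted protein with scavenger receptor cysteine-rich domains, fell most. It had 3086 ± 46.9 normalized counts in NS, 328 ± 46.5 in NB9464 TCM (log2 fold change -3.24 ± 0.149 SE, adjusted p = 3.4e-102) and 250 ± 29.5 in NBT3L TCM (-3.63 ± 0.155 SE, adjusted p = 1.16e-118). Unlike Mrc1, Cd5l was higher with R788 in both TCMs, by 0.67 (adjusted p = 0.000256) and 1.21 (adjusted p = 2.63e-12).

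Colec12, a class A receptor related to Msr1 and Marco, fell to 592 ± 32.9 and 764 ± 177 from 2512 ± 43.1 (log2 fold changes -2.09 and -1.72, adjusted p = 2.47e-46 and 9.64e-32), against the rise of Msr1 and Marco. Scarb2, the lysosomal class B family member, fell in NB9464 TCM and NBT3L TCM, at -0.89 and -0.55 on the log2 scale (adjusted p = 1.36e-38 and 4.11e-15). Scarf1, an endothelial and macrophage receptor for modified lipoprotein, rose by 0.76 in NB9464 TCM and by 1.15 in NBT3L TCM (adjusted p = 5.6e-13 and 1.02e-28). Scarf2 rose in both media by 0.90 and 1.11 from 85.4 ± 14.8 normalized counts in NS (adjusted p = 0.0346 and 0.00623), the former not called under total count scaling (adjusted p = 0.0778). With R788 alone 1 of the 15 was higher and 3 were lower (3 and 1 under total count scaling), a share of 26.7% that was near the 26.6% called among all genes. In TCM, R788 left 2 higher and 3 lower with NB9464 and 1 higher and 2 lower with NBT3L. That was 33.3% and 20% of the 15, beside 14.5% and 12.6% of all genes.

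**Figure D5:**
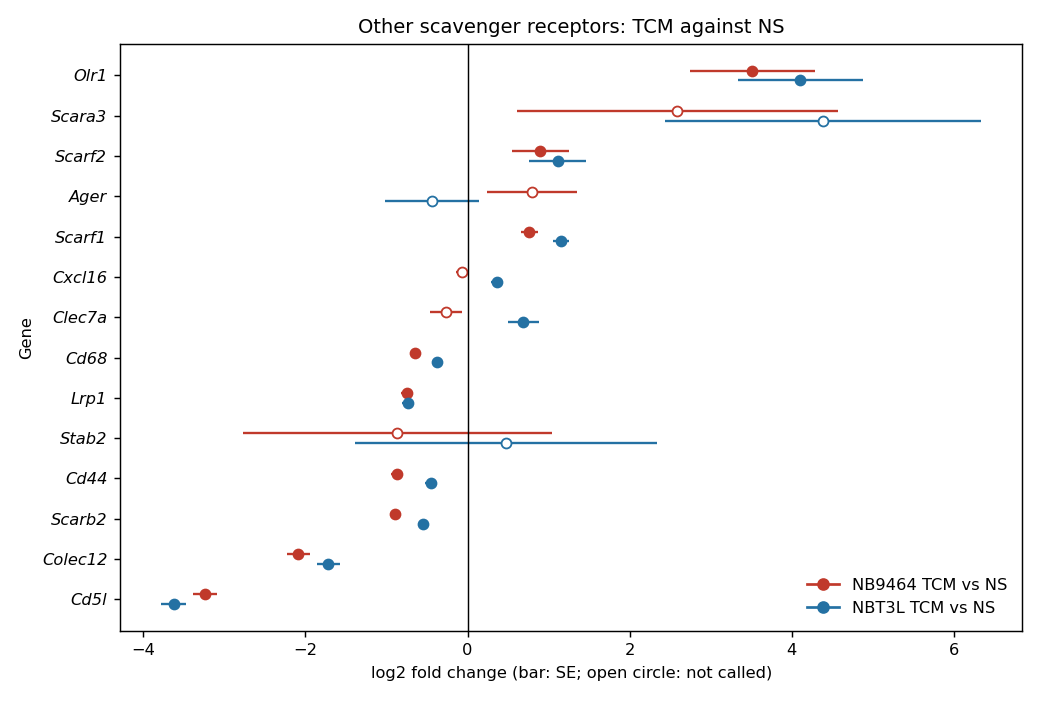
Log2 fold change of the other scavenger receptors, all but 1 of the 15 tested, in NB9464 TCM (red) and NBT3L TCM (blue) against NS, with bars for the SE and filled circles for called differences. Cd5l lies at -3.24 and -3.63 and Colec12 at -2.09 and -1.72, and the wide bars of Stab2 and Scara3 belong to genes with few counts.

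Among 15 partners of lipid uptake, all tested, 4 rose and 8 fell in NB9464 TCM (2 and 9 under total count scaling), and 5 rose and 9 fell in NBT3L TCM (3 and 10). These calls were 80% and 93.3% of the 15, beside 34.1% and 35.3% of all genes. Pparg, a nuclear receptor known to drive Cd36, fell, with log2 fold changes of -2.41 and -2.42, and had 795 ± 49.3 normalized counts in NS, then 150 ± 30.4 with NB9464 TCM and 149 ± 15.7 with NBT3L TCM (adjusted p = 5.2e-13 and 5.8e-13). Its target Cd36 fell in NB9464 TCM and was not called in NBT3L TCM. Acsl1, which activates long-chain fatty acids, rose by 1.63 and 2.37 (adjusted p = 5.47e-102 and 2.17e-215), and Apoe, the lipoprotein that carries cholesterol from macrophages, fell, at -1.44 and -1.51 (adjusted p = 4.79e-47 and 1.47e-51). Abcg1, a cholesterol exporter, fell by 1.72 in NBT3L TCM (adjusted p = 4.98e-46). With R788 alone 4 of the 15 rose and 9 fell, 86.7% called beside 26.6% of all genes. Among those that fell was Lpl, lipoprotein lipase, which went from 142392 ± 8391 to 21184 ± 523 normalized counts (log2 fold change -2.75, adjusted p too small to be represented). Pparg and Abcg1 fell, at -1.66 and -1.405 on the log2 scale (adjusted p = 1.56e-06 and 4.27e-32), and Apoe rose by 1.84 (adjusted p = 1.2e-79). In TCM, R788 raised 4 and lowered 6 with NB9464 and raised 1 and lowered 5 with NBT3L. That was 66.7% and 40% of the 15, beside 14.5% and 12.6% of all genes. Fabp4, a fatty acid carrier, fell in both, at -0.93 and -1.83 (adjusted p = 0.000157 and 1.09e-14).

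A list for haemoglobin and haem uptake held 11 genes, all tested. It included Ltc4s, a leukotriene enzyme that is no partner of haem uptake, and Lrp1, also counted among the other scavenger receptors. Of the 11, 5 rose and 2 fell in NB9464 TCM (5 and 4 under total count scaling) and 6 rose and 3 fell in NBT3L TCM (5 and 4). These calls were 63.6% and 81.8% of the list, beside 34.1% and 35.3% of all genes. Hp, haptoglobin, whose complex with haemoglobin is the ligand of Cd163, rose in both media, to 37723 ± 1523 normalized counts with NB9464 TCM and 19071 ± 213 with NBT3L TCM, from 513 ± 3.88 in NS. These were log2 fold changes of 6.20 ± 0.0810 and 5.22 ± 0.0812 (SE), with adjusted p too small to be represented. Cd163 rose by 0.55 in NB9464 TCM and was not called in NBT3L TCM. Hmox1, which breaks down haem, rose by 1.66 and 2.29 (adjusted p too small to be represented) and Fth1, the ferritin heavy chain, by 1.37 and 1.66 (adjusted p = 3.73e-96 and 1.92e-140). Slc40a1, the iron exporter ferroportin, fell, at -2.005 and -1.85 on the log2 scale (adjusted p = 6.39e-102 and 1.19e-85). With R788 alone 4 of the 11 rose and 2 fell (5 and 1 under total count scaling), 54.5% called beside 26.6% of all genes. Slc40a1 rose by 0.79 without TCM (adjusted p = 8.59e-18) and fell by 0.42 in NB9464 TCM (adjusted p = 0.00025), and the difference of effect was -1.22 ± 0.132 (adjusted p = 6.09e-18).

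Of 15 genes of the mannose receptor family and alternative activation, 11 were tested, since Cd209a, Cd209d, Retnla and Ccl17 had at most 6, 0, 13 and 0 counts in a library. In NB9464 TCM 5 of the 11 rose and 2 fell, and in NBT3L TCM 3 rose and 2 fell (3 and 4 under total count scaling). These calls were 63.6% and 45.5% of the 11, beside 34.1% and 35.3% of all genes. Ly75, a mannose receptor family member of antigen-presenting cells, rose, with log2 fold changes of 3.83 and 3.996, and had 95.2 ± 44.7 normalized counts in NS, then 1356 ± 76.7 with NB9464 TCM and 1519 ± 73.9 with NBT3L TCM (adjusted p = 1.77e-52 and 5.45e-57), against the fall of Mrc1. Clec10a, a lectin of alternatively activated macrophages, fell, at -2.62 and -1.86 (adjusted p = 2.48e-18 and 4.49e-10), and Arg1, arginase, rose by 2.01 and 2.94 (adjusted p = 4.97e-18 and 4.22e-38). With R788 alone 4 rose and 3 fell, 63.6% called beside 26.6% of all genes. In each TCM none rose and 2 of the 11 (18.2%) fell with R788, beside 14.5% and 12.6% of all genes called in either direction, Arg1 at -2.09 and -1.34 (adjusted p = 3.09e-18 and 1.08e-08) and Il4ra, a chain of the interleukin 4 receptor, at -0.22 and -0.22 (adjusted p = 0.00193 and 0.00172).

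Among 21 transcription factors known for one or more of the receptors, 4 rose and 10 fell in NB9464 TCM (3 and 14 under total count scaling) and 5 rose and 9 fell in NBT3L TCM (4 and 14). These calls were 66.7% of the 21 in each TCM, beside 34.1% and 35.3% of all genes. Pparg is given above, and Klf4, a factor of alternative activation, fell, at -1.42 and -1.68 on the log2 scale (adjusted p = 4.64e-15 and 2.88e-20). Cebpb, an inflammatory C/EBP factor, rose by 1.09 and 1.17 (adjusted p = 1.87e-55 and 8.94e-63) and Ppard, a relative of Pparg, by 0.96 and 1.18 (adjusted p = 8.45e-21 and 3.63e-31). With R788 alone 10 rose and 5 fell (13 and 4 under total count scaling), with Rxra, the partner of several nuclear receptors, higher by 0.89 (adjusted p = 1.55e-20), Klf4 higher by 0.83 (adjusted p = 8.99e-06) and Atf3, a stress-induced factor, lower by 1.12 (log2 fold change -1.12, adjusted p = 1.23e-64). The share called with R788 alone was 71.4%, beside 26.6% of all genes. In TCM, R788 raised 6 and lowered 4 with NB9464 and raised 4 and lowered 2 with NBT3L. That was 47.6% and 28.6% of the 21, beside 14.5% and 12.6% of all genes. Cebpa, a myeloid factor, rose in both by 0.49 and 0.54 (adjusted p = 6.62e-07 and 5.93e-08), and Tfec fell in both, at -0.42 and -0.47 (adjusted p = 0.00216 and 0.00047).

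The genes whose pattern over the 12 libraries was most like each receptor were sought among 10703 genes with a symbol and a mean of at least 100 normalized counts, by Pearson's r of log2 normalized counts. The libraries are 6 groups of replicates, so r describes these groups and carries no test. Msr1 was most like Ctsk, cathepsin K (r = 0.976), Bend6 (0.973) and Flna, filamin A (0.960). Marco was most like Il12a, the p35 chain of interleukin 12 (0.9995), Slc11a2, a divalent metal transporter (0.999), and Nhs (0.998). Mrc1 was most like Ctnna1, alpha-catenin (0.992), Anpep, aminopeptidase N (0.990), and Plxdc1 (0.989). Stab1 was most like Zfp608 (0.990), Kif3a, a kinesin (0.984), and Rpia, an enzyme of the pentose phosphate pathway (0.983). Cd163 was most like Sec22c (0.980), Lrrc45 (0.956) and Bhlhe41 (0.954), a basic helix-loop-helix repressor. The highest r were lower for Cd36, with Slc7a8, an amino acid transporter (0.932), Syce2 (0.920) and Tusc3 (0.912), and for Scarb1, with P2ry10b (0.922), Bzw2 (0.909) and Myc (0.905).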

How the data were processed

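Macrophage RNA was sequenced in 12 libraries, 2 for each of 6 groups, and groups were taken from the sample labels. The deposited table held whole-number counts per gene. By the study's methods the authors used STAR to align reads to mm10 and Salmon for quantification (versions 2.6.1d and 1.4.0 in the submitters' processing notes), and the use of strand was not given in the sources used here. Gene positions came from GENCODE M21, whose gene lengths matched 97.3% of the table, and promoters from RefSeq. Even numbers made up 65.2% to 67.9% of the counts from 1 to 40, so 1 alternative divided all counts by 2. The test covered the 16281 genes that reached 10 counts in 2 or more libraries and used DESeq2 1.42.0 (Wald test, median-of-ratios scaling, all 12 libraries, Benjamini-Hochberg adjustment per comparison) in R 4.3.3. A gene was called at an adjusted p under 0.05. TPM was computed from the counts and the table's gene lengths. Alternatives were TMM and total count scaling, edgeR 4.0.16, other filters, only the libraries compared, and leaving out each library. The method was tested on simulated data. The members and lists were chosen with earlier results of these data known. List genes were named from those called with a mean of at least 100 normalized counts, at most the 4 with the largest change per list and comparison. The values of 1 list gene are not reported here. Comparisons that share NS libraries are not independent.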

Additional observations from a re-analysis of the deposited data

Results flagged for a closer look

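A total of 13 results were singled out because the effect of R788 on a receptor differed between media by a test of the difference itself, the interaction term of the DESeq2 fit. For NB9464 TCM minus no TCM, the differences of the R788 effect on the log2 scale were -0.49 for Msr1, 0.54 for Cd36, -1.44 for Cd163, -1.40 for Stab1 and -1.72 for Mrc1. For NBT3L TCM minus no TCM they were -0.40 for Msr1, 0.46 for Cd36, -0.70 for Cd163, -1.02 for Stab1, -1.20 for Mrc1 and 0.41 for Scarb1. For NB9464 TCM minus NBT3L TCM they were -0.38 for Stab1 and -0.52 for Mrc1. As given above, the last call, of Mrc1, was lost with edgeR and depended on single libraries. That of Cd163 for NBT3L TCM minus no TCM also depended on single libraries. Stab1 changed direction with the medium, rising by 0.71 with R788 alone and falling by 0.69 and 0.31 with R788 in NB9464 TCM and NBT3L TCM.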

How the results depend on the processing

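Of 1463 values over 77 pairs of receptor and comparison and 19 alternatives, 1389 kept their direction and their side of the threshold, 46 lost a call, 21 gained one and 7 turned direction, none of the last being called. Total count scaling turned Scarb1 in NB9464 TCM against NS to -0.0358, Cd163 in NB9464 TCM + R788 against NS to -0.0828 and Marco in the R788 effect of NB9464 TCM minus NBT3L TCM to -0.0008. Leaving out 1 library at a time gave -0.0368 to 0.0145 for Msr1 and -0.1119 to 0.0819 for Cd163 in NBT3L TCM + R788 against NS, and -0.0176 to 0.0891 for Marco in that R788 effect. In the R788 effect of NB9464 TCM minus NBT3L TCM 2 receptors were called, 1 with edgeR and 1 to 3 with a library left out (1 without SJ6 or SJ12, 3 without SJ7 or SJ8). In the same comparison 115 genes of all tested were called, 21 with edgeR, 272 with only the libraries compared and 46 to 234 with a library left out. Other counts of called genes fell from 2359 to 1432 without SJ3 and from 2046 to 1173 without SJ6 for R788 in NB9464 TCM and NBT3L TCM, and from 1531 to 795 without SJ6 between the TCMs. For the R788 effect of NB9464 TCM and of NBT3L TCM minus no TCM, 2032 and 1649 genes were called, both fewer without SJ2 and both more without SJ7. The cause was not tested. No paired analysis was possible because each library has its own number. With 2 libraries a group, small differences of Cd163, Scarb1 and Marco depended on single libraries.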
